A study of Mus musculus with 92 samples.

Results

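Ifitm1, Ifitm2, Ifitm3, Ifitm6 and Bst2 (tetherin) are 5 of the 29956 named genes in a table of mouse RNA sequencing values, and were looked up by symbol. All 5 were found in the table and passed the filter on low values in every fit.

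The interferon-induced transmembrane (IFITM) proteins sit in cell membranes and hinder the fusion of enveloped viruses with the host. IFITM3 acts mainly in late endosomes and lysosomes, IFITM2 is also found in endosomes, and IFITM1 lies largely at the cell surface. Ifitm6 is a rodent relative whose role is less well known. BST2 is anchored in the membrane at both ends and holds budding virions on the surface of the infected cell. Type I interferon raises many antiviral genes through the kinases JAK1 and TYK2. ADAR1 edits adenosine to inosine in double-stranded RNA, and in its absence the cell's own RNA can set off interferon production through the sensor MDA5.

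The 92 libraries fall into 25 groups of mouse myeloid cells and come from a study of ER-Hoxb8 cells, conditionally immortalized progenitors held back from maturing by an estrogen-dependent Hoxb8. Bone marrow gave 3 libraries of lineage-depleted progenitors and 3 of monocytes enriched by magnetic sorting, and marrow grown for 7 days with M-CSF gave 3 of BMD macrophages. ER-Hoxb8 cells gave 3 libraries each at day 0 (progenitors), day 4 and day 7 (macrophages). By the study's methods ER-Hoxb8 progenitors grew in RPMI with estradiol and GM-CSF, and differentiating cells in DMEM with M-CSF. Stage, medium, cytokine and loss of estradiol therefore cannot be told apart. Brain-derived cells were sorted, namely 6 libraries of microglia-like cells (MLCs) from marrow, 6 of ER-Hoxb8 MLCs and 9 of microglia. Titles give the FVB strain for marrow progenitors, monocytes, BMD macrophages and microglia, all wild type, and for the ER-Hoxb8 cells of day 0, 4 and 7, which came from a Cas9 mouse and are labelled Cas9 heterozygous. Both kinds of MLC are labelled WT, so ER-Hoxb8 MLCs and ER-Hoxb8 macrophages also differ in their labelled genotype.

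The MLCs came from Csf1r-/- hosts injected as newborns and taken about 2 weeks later, and the microglia from uninjected wild-type mice. The genotype of the host and the origin of the cell therefore cannot be told apart when MLCs are set against microglia. Of the ER-Hoxb8 MLC libraries, replicates 1 to 3 carry GFPHox names and replicates 4 to 6 WTHox names. Microglia replicates 8 and 9 carry a YSWT name.

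Cas9-heterozygous ER-Hoxb8 progenitors received a non-targeting control guide (NTC) or 1 of 2 guides to different exons of Adar1, and were sorted as pools, so an edited group may still hold unedited cells. NTC and guide 1 gave 3 libraries each of progenitors and day 7 macrophages, and guide 2 gave 3 of progenitors and 5 of macrophages. NTC progenitors and NTC macrophage replicate 2 carry NTC2 names, whereas NTC macrophage replicates 1 and 3 carry NTC names. The labels do not say what this difference in names means. A further 33 libraries held day 7 macrophages, NTC or Adar1 KO guide 1, grown with baricitinib, an inhibitor of JAK1 and JAK2. Sample titles give doses of 0, 0.0006, 0.016, 0.4 and 10 uM, whereas the treatment protocol gives the second as 0.00064 uM and the third as 0.16 uM. They are called no drug and the second to the fifth dose here. NTC had 3, 3, 4, 4 and 3 libraries over the 5 levels, and KO had 3, 3, 3, 3 and 4. The study describes the replicates of this experiment as differentiated independently, and the labels name no separate rounds of editing within a guide. The SE and p values here therefore measure the spread between cultures, not between separate edits.

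Values were read as CPM, here read counts scaled by library size after the authors' normalization, and rebuilt from the log2 CPM that they deposited. Taken back from the log2 scale, the deposited values summed to between 7.089e+05 and 1.392e+06 per library, so library totals were not equal. The libraries had been normalized in 6 separate sets, and tests were run within a set only. Mean depth per set, worked out from the lowest value under an assumed prior count of 2, was 13700000 to 40600000 counts. A level of 3 counts corresponded to 0.0739 CPM in the deepest set and 0.218 CPM in the shallowest, for counting error only. Levels of the different genes were not compared with each other. In these bulk libraries, fewer cells of a type and less RNA per cell cannot be told apart.

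Ifitm5, Ifitm2 and Ifitm1 stand side by side on chromosome 7, with Ifitm3 next to Ifitm6 farther along, and Bst2 lies on chromosome 8. Near-identical copies put a limit on some members. Of the 31-base words in Ifitm2 transcripts, 55.5% also occurred in transcripts of other genes, 38.1% in Gm45717 alone. The shares were 20.5% for Ifitm3 and 11.6% for Ifitm1, and 0% for Ifitm6 and for Bst2. How reads were divided among such copies was not tested, so the level of Ifitm2 above all is uncertain.

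Stretches near the starts of 4 members that hold letters of known interferon motifs are shown first, to be read beside the changes with editing and drug. The interferon-stimulated response element was searched as GAAA, any 2 bases and GAAA again, and the STAT site as TTCNNNGAA on both strands, within 250 bases before and 50 after each RefSeq start. Of 32851 such promoters, 3.44% held the first and 8.3% the second. Capitals mark the matches, and all lines read 5′ to 3′ on the gene's strand from RefSeq sequence of build GRCm38.p6. Bst2 (chr8:71537533-71537632, minus strand) had 2 overlapping copies of the first motif, of which the upstream copy also overlapped 1 copy of the second. Ifitm3 (chr7:141010715-141010744, minus strand) had 2 of the first and 1 of the second between them, overlapping the latter copy, all just after the start. Ifitm2 (chr7:140955962-140956061, minus strand) had 1 of the first. Ifitm6 (chr7:141016893-141016992, minus strand) had 1 of the second, and Ifitm1 had 0 of either in its window. A match describes letters only.
Bst2: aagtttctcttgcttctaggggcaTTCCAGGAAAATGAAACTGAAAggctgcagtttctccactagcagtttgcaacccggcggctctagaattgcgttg
Ifitm3: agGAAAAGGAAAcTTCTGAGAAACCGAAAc
Ifitm2: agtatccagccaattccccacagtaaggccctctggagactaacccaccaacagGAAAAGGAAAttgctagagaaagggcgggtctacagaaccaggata
Ifitm6: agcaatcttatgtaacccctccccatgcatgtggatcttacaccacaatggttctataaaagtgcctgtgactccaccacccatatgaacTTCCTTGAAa

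Adar mRNA was not lower in the untreated edited groups. Adar stood at 18.3, 10.6 and 19.3 CPM in NTC progenitors and at 20.5, 18.7 and 18.8 CPM in KO guide 1 progenitors. In macrophages it was 53.0 and 50.7 CPM in NTC and 124, 142 and 128 CPM in KO guide 1, with no overlap (log2 difference 1.34, SE 0.21, limma adjusted p 9.8e-04). Guide 2 macrophages held 127 to 131 CPM in 5 libraries. In the baricitinib set, undrugged NTC had 34.6, 30.7 and 25.7 CPM of Adar and undrugged KO had 171, 91.4 and 82.7 CPM. At the fifth dose, Adar was 12.8, 12.3 and 9.17 CPM in NTC and 2.79, 4.31, 7.38 and 3.92 CPM in KO, a log2 difference of -1.36 (SE 0.47, adjusted p 0.0146). Cas9 cuts leave small insertions and deletions that need not lower a transcript's level, so these values do not check the genotype.

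Some libraries stood apart from their groups before any test of the members. Adar1 KO replicate 2 at the fourth dose had a summed level of 46914 CPM over 20 interferon-stimulated genes, against 323 and 551 CPM in the group's other libraries, and 191 CPM of interferon transcripts, with Ifnb1 the most abundant at 64.7 CPM. ER-Hoxb8 progenitor replicates 1 and 2 carried macrophage markers at 7197 and 7396 CPM, against 1596 CPM in replicate 3 and 7603 to 11746 CPM at day 4, which goes against a uniform progenitor label. Their progenitor markers summed to 41.3 and 19.6 CPM, against 96.6 CPM in replicate 3. ER-Hoxb8 MLC replicate 6 had monocyte markers at 11228 CPM, where the other 5 had 149 to 531 CPM, and microglial markers at 887 CPM, where the others had 6548 to 11335 CPM. BMD macrophage replicate 3 had 1085 CPM of the interferon-stimulated genes against 394 and 328 CPM. NTC macrophage replicate 2 was normalized by itself and entered no test, except in an alternative. Fits that leave out a library of the groups compared were planned, as was the one with NTC replicate 2. Fits that leave out a library of other groups were chosen after seeing the data.

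Microglial markers summed to 69289 to 93686 CPM in microglia, 5740 to 19447 CPM in marrow MLCs and 246 to 906 CPM in the cultured macrophages of the same set. Macrophage markers were at 7776 to 10984 CPM in those cultures.

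Bst2 was the member with the largest rise when Adar1 was edited in macrophages. It stood at 150.3 and 129 CPM in NTC macrophages, with 141.5 CPM in the library normalized alone, and at 1021, 845 and 568 CPM in KO guide 1 macrophages. All KO libraries lay above all NTC libraries. The log2 difference was 2.50 (SE 0.21, adjusted p 7.1e-06), or 5.66-fold.

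Ifitm3, the endosomal member, was at 1473 and 1227 CPM in NTC and 3625, 3431 and 2574 CPM in KO guide 1 macrophages, again without overlap. Its log2 difference was 1.24 (SE 0.27, adjusted p 0.0066). Ifitm1 went the other way, from 6.04 and 4.05 CPM in NTC to 1.83, 2.15 and 2.60 CPM in KO. The groups did not overlap, at low levels, and the log2 difference was -1.16 (SE 0.21, adjusted p 0.0025). Thus 3 of 5 members passed the limma test, against 21.8% of the 11008 genes tested. Ifitm2 ranged over 700.5 to 817 CPM in KO and was 919.5 and 784 CPM in NTC, and Ifitm6 ranged over 169 to 356 CPM in KO against 302 and 246 CPM in NTC. Neither of those passed (log2 differences -0.17 and -0.14, adjusted p 0.406 and 0.876). With NTC replicate 2 included, the same 3 members passed beside 29.9% of genes, with log2 differences of 2.49 for Bst2, 1.24 for Ifitm3 and -1.02 for Ifitm1.

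In progenitors, editing Adar1 left 0 of 4 members past the limma threshold, where 0.936% of genes passed. Ifitm6 is not counted, since it was near the floor in both groups and could hardly show a difference. At an unadjusted p below 0.05, 725 genes were counted, among them 1 member, Ifitm1, with 671, 874 and 767.5 CPM in KO guide 1 and 482, 687 and 543 CPM in NTC. These groups overlapped (log2 difference 0.44, SE 0.19, adjusted p 0.696). Bst2 stood at 44.6, 50.5 and 44.9 CPM in KO progenitors and 44.9, 58.0 and 50.9 CPM in NTC, with overlap. Ifitm3 was at 109, 192 and 174 CPM in KO progenitors and 97.3, 165 and 138 CPM in NTC, also overlapping. Between libraries of the same replicate number, which deviated together here, Bst2 was lower in KO in 3 of 3 pairs, and Ifitm1 and Ifitm3 were higher in 3 of 3.

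The effect of editing differed between macrophages and progenitors for 2 of 4 members, Ifitm6 again not counted, beside 13.6% of all genes. For Bst2 the difference of effects was 2.63 on the log2 scale (SE 0.28, adjusted p 8.9e-05), and for Ifitm1 it was -1.60 (SE 0.28, adjusted p 0.0032). Ifitm3 gave 1.00 (SE 0.36, adjusted p 0.0868), which missed the threshold and passed it with NTC macrophage replicate 2 included (1.01, adjusted p 0.0473). Without NTC progenitor replicate 1 the count was 3, beside 14.4%.

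**Figure D1:**
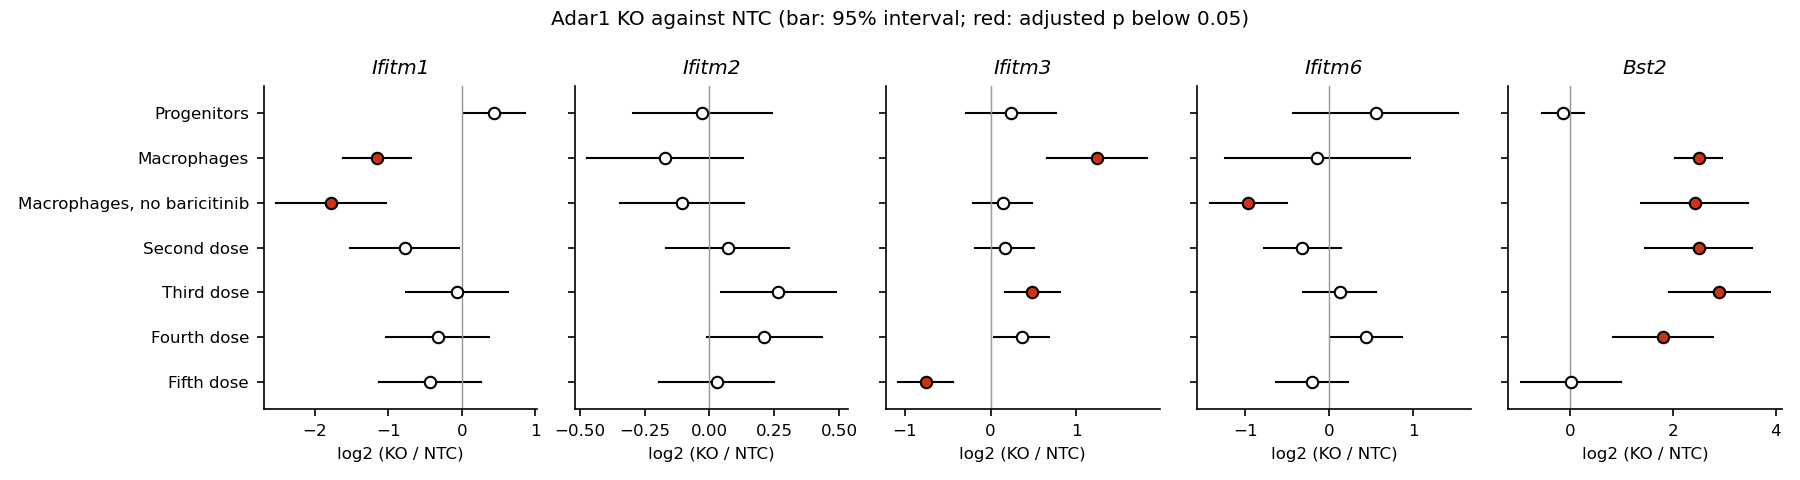
Level of each member (CPM, log axis) in NTC, Adar1 KO guide 1 and guide 2 cells, as progenitors and day 7 macrophages, with 1 point per library. Guide 2 cells were normalized apart from the others and are not compared with them. Bst2 lies between 568 and 1021 CPM in the 3 KO guide 1 macrophage libraries, above the NTC macrophages at 129 and 150.3 CPM.

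Genes around the members moved widely with the editing. Of 20 interferon-stimulated genes that the study itself shows for these cells, and which are not taken as independent evidence, 20 rose in KO guide 1 macrophages, with a median log2 difference of 4.43 beside 0.05 over all genes tested. In progenitors 1 of 20 rose and the median was -0.18, beside -0.01. Of 14 tested genes of the interferon receptors and JAK-STAT pathway, 7 rose and 2 fell in macrophages, Irf7 most (log2 difference 5.61). Summed interferon transcripts were at 7.05, 3.37 and 1.44 CPM in KO guide 1 macrophages and 0.113 and 0 CPM in NTC, and 0 of 6 interferon genes were tested there, all being low. Of 5 genes known to modify or bind IFITM proteins (Zdhhc20, Nedd4, Setd7, Zmpste24 and Vapa), 0 passed limma between KO and NTC macrophages or progenitors. Marker sums differed too: monocyte markers were at 504 to 1449 CPM in KO guide 1 and 249 to 305 CPM in NTC macrophages, neutrophil markers at 69.3 to 82.8 CPM and 10.9 to 15.7 CPM, and macrophage markers at 9233 to 9694 CPM and 10533 to 11734 CPM, none with overlap. The part of such cells in the changes of the members was not tested.

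Guide 2 cells were normalized in a set without NTC cells, so no test against NTC was made. Bst2 was 40.2, 38.0 and 38.8 CPM in guide 2 progenitors and 475, 459, 489.5, 497 and 534 CPM in their macrophages. Ifitm3 was 122, 117 and 114 CPM in the progenitors and 1816, 1882, 1861, 1786 and 1952 CPM in the macrophages. The rise of Bst2 from progenitors to macrophages, 3.65 on the log2 scale (SE 0.05), may be read beside 4.08 (SE 0.19) for guide 1 and 1.45 (SE 0.21) for NTC in the other set. Interferon transcripts summed to 2.22 to 2.85 CPM in guide 2 macrophages.

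Progenitors and macrophages, which also differed in their medium, differed in the members in each of the 3 lines, as they did in most genes. Ifitm6 passed the filter through the macrophages alone and had to differ, so it is not counted. The other 4 all passed limma in NTC cells (beside 71.8% of all genes), guide 1 cells (71.3%) and guide 2 cells (81.3%). Ifitm1 fell steeply, from 482 to 687 CPM in NTC progenitors to 6.04 and 4.05 CPM in NTC macrophages (log2 difference -6.81, SE 0.21, adjusted p 2.3e-10). In guide 1 cells it fell by 8.40 and in guide 2 cells by 7.56 on the log2 scale, with no overlap in either. Ifitm3 rose in NTC cells from 97.3 to 165 CPM to 1473 and 1227 CPM (log2 difference 3.36, SE 0.27, adjusted p 4.4e-07). The rises of Ifitm3 were 4.37 (SE 0.24) in guide 1 and 3.98 (SE 0.04) in guide 2 cells. Ifitm2 rose least, by 0.98, 0.84 and 0.59 on the log2 scale in NTC, guide 1 and guide 2 cells.

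Ifitm6 was close to the floor in these progenitors, with 0, 0.163 and 0.306 CPM in NTC, 0.189, 0.196 and 0.273 CPM in guide 1 and 0.350, 0.383 and 0.417 CPM in guide 2 cells. In macrophages it was 302 and 246 CPM in NTC, 356, 251 and 169 CPM in guide 1, and 41.8, 47.2, 49.4, 42.2 and 51.1 CPM in guide 2 cells. The progenitors and macrophages of each line lay far apart, and the fitted log2 rises of 10.33, 9.64 and 6.63 depend on the offset of the log scale. The 9 neutrophil markers summed to 16885 to 25164 CPM in NTC progenitors and to 10.9 and 15.7 CPM in NTC macrophages. In guide 1 cells the sums were 12151 to 18160 CPM in progenitors and 69.3 to 82.8 CPM in macrophages. Markers that passed the filter through the progenitors alone had to fall, so falls are not counted. In guide 2 cells the sum went from 2311 to 2839 CPM in progenitors to 22.4 to 28.2 CPM in macrophages. There S100a8 rose by 1.01 on the log2 scale (limma adjusted p 4.4e-05) and Ngp by 0.60 (adjusted p 0.0242), beside 81.3% of all genes that passed.

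In order of log2 level in the guide 1 set, Bst2 was highest in KO macrophages (9.62, SD 0.43), then NTC macrophages (7.12, SD 0.15), then NTC progenitors (5.67, SD 0.18) and KO progenitors (5.54, SD 0.10), the last pair not differing beyond their spread. Ifitm3 had the order KO macrophages (11.63, SD 0.27), NTC macrophages (10.39, SD 0.19), KO progenitors (7.27, SD 0.44) and NTC progenitors (7.03, SD 0.39), with the progenitors again within their spread. Ifitm6 had NTC macrophages (8.09, SD 0.21) and KO macrophages (7.95, SD 0.54) within their spread, above both kinds of progenitor. Ifitm1 stood at 9.58 (SD 0.19) in KO progenitors, 9.14 (SD 0.26) in NTC progenitors, 2.33 (SD 0.40) in NTC macrophages and 1.18 (SD 0.24) in KO macrophages. Ifitm2 stood at 9.73 (SD 0.16) and 9.56 (SD 0.11) in NTC and KO macrophages, and at 8.75 (SD 0.20) and 8.72 (SD 0.11) in NTC and KO progenitors.

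The baricitinib experiment again set KO against NTC macrophages, in other libraries but with the same guide 1, so it is not a separate edit. Without drug, Bst2 was 93.9, 87.3 and 81.5 CPM in NTC and 487.5, 515 and 417 CPM in KO. Every KO library was above every NTC library (log2 difference 2.43, SE 0.51, adjusted p 7.5e-04). The wide SE came with KO replicate 2 at the fourth dose in the shared fit, and without that library the same difference had an SE of 0.13 and an adjusted p of 3.6e-14. Ifitm1 was 2.99, 3.18 and 2.59 CPM in NTC and 0.887, 0.908 and 0.504 CPM in KO, without overlap (log2 difference -1.78, SE 0.36, adjusted p 5.7e-04). Ifitm6 was 218, 244 and 261 CPM in NTC and 101, 121 and 154 CPM in KO, without overlap (log2 difference -0.96, SE 0.22, adjusted p 0.0021). Thus 3 of 5 members passed, beside 25.3% of all genes. Monocyte markers were at 442 to 549 CPM in undrugged KO and 287 to 343 CPM in undrugged NTC, and macrophage markers at 8090 to 9398 CPM and 10051 to 10875 CPM. Neutrophil markers were at 54.1 to 67.8 CPM and 75.1 to 95.6 CPM, and progenitor markers at 1.62 to 3.41 CPM and 0.951 to 1.55 CPM. These sums did not overlap either.

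Ifitm3 did not pass between undrugged KO and NTC here. It had 2171, 2382 and 2302 CPM in NTC and 2530, 2467 and 2562 CPM in KO, apart but close (log2 difference 0.14, SE 0.17, adjusted p 0.578). The other set had given 1.24 for Ifitm3 and -0.14 for Ifitm6, but whether the 2 experiments differ was not tested, as they were normalized apart. Of the 20 interferon-stimulated genes, 19 rose without drug, with a median of 3.76, Ifit3 most at 7.53, beside -0.02 over all genes tested.

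Bst2 remained above NTC at low doses. At the second dose it was 76.4, 106 and 84.7 CPM in NTC and 418, 535 and 558 CPM in KO, and 1 of 5 members, Bst2 itself, passed beside 29% of genes (log2 difference 2.50, SE 0.51, adjusted p 4.3e-04). At the third dose Bst2 was 69.3, 64.1, 62.8 and 68.4 CPM in NTC and 516, 503 and 471 CPM in KO (log2 difference 2.91, SE 0.47, adjusted p 2.7e-05). No KO library overlapped NTC at either dose. At the second dose monocyte markers were at 416 to 658 CPM in KO and 317 to 364 CPM in NTC. Macrophage markers were at 8461 to 9778.5 CPM and 10134 to 10560 CPM, and progenitor markers at 1.92 to 4.85 CPM and 0.873 to 1.42 CPM. None of these sums overlapped, and the part of such cells in the change of Bst2 was not tested.

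Bst2 and Ifitm3, 2 of 5 members, passed between KO and NTC at the third dose, beside 32.2% of genes. Between the same groups monocyte markers were at 522 to 722 CPM in KO and 337 to 346 CPM in NTC. Progenitor markers were at 2.92 to 4.36 CPM and 0.753 to 1.36 CPM, and neither sum overlapped. The part of such cells in these calls was not tested. Ifitm3 was 2168, 2333, 2238 and 2138 CPM in NTC and 3364, 3179 and 2808 CPM in KO, without overlap (log2 difference 0.49, SE 0.16, adjusted p 0.0172). This call for Ifitm3 ended without KO replicate 1 (0.43, adjusted p 0.0778) or KO replicate 2 (0.47, adjusted p 0.0564), and under quantile normalization the difference turned to -0.032.

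At the fourth dose the KO libraries parted. Bst2 was 59.1, 58.5, 52.1 and 46.2 CPM in NTC and 67.6, 1111 and 89.0 CPM in KO, where replicate 2 is the library that stood apart. The lower pair of KO libraries still lay above NTC, by a small margin. With all libraries 1 of 5 members, Bst2, passed, beside 13.5% of genes, with a log2 difference of 1.81 (SE 0.47, adjusted p 0.012). Without replicate 2 it was 0.53 (SE 0.14, adjusted p 0.0147), again with 1 member passing, now beside 6.62%. Without KO replicate 1 the count was 2, beside 19.9%. Ifitm3 was 2036, 4283 and 2322 CPM in the KO libraries and 2039, 2102, 2080 and 2276 CPM in NTC, so only replicate 2 stood clearly above. Macrophage markers at this dose were at 11626 to 12992 CPM in KO and 9774 to 10978 CPM in NTC. Microglial markers were at 1660 to 1902 CPM and 892 to 1087 CPM, and progenitor markers at 2.91 to 7.24 CPM and 0.998 to 1.51 CPM. None of these sums overlapped, and the part of such cells was not tested.

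At the fifth dose Bst2 no longer differed measurably. It was 52.3, 54.7 and 55.9 CPM in NTC and 57.3, 63.5, 52.4 and 47.8 CPM in KO, with overlap (log2 difference 0.02, SE 0.47, adjusted p 0.983, and SE 0.12 without KO replicate 2 at the fourth dose). Ifitm3 was lower in KO, at 1013, 1162, 907.5 and 1008 CPM, than in NTC, at 1638, 1606 and 1920 CPM. The groups did not overlap (log2 difference -0.75, SE 0.16, adjusted p 2.7e-04). Nor did marker sums in KO and NTC at this dose, with macrophage markers at 7356 to 7951 CPM and 9590 to 10283 CPM, microglial markers at 1637 to 2048 CPM and 1201 to 1384 CPM and progenitor markers at 10.8 to 14.4 CPM and 1.53 to 2.16 CPM. Ifitm3 was the 1 member of 5 that passed at this dose, where 45.3% of genes did. The interferon-stimulated genes had a median of 0.10, and 0 of 20 passed limma.

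**Figure D2:**
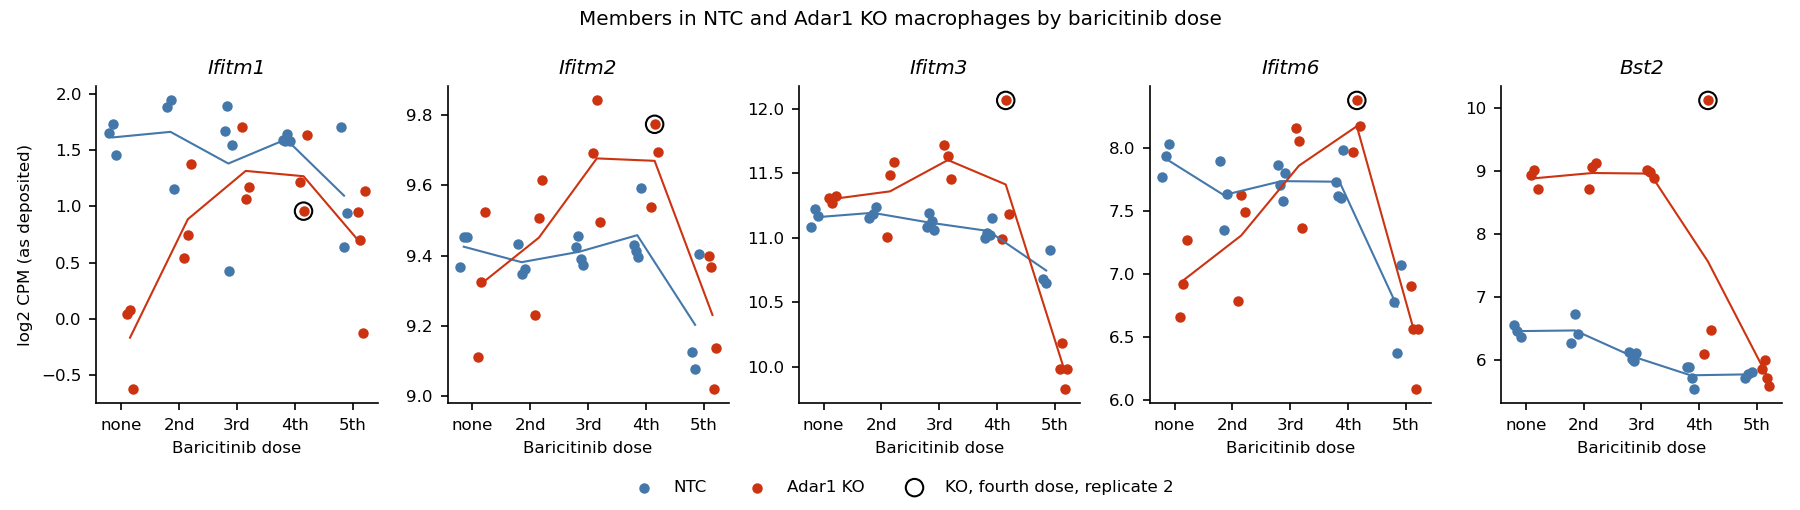
Level of each member (CPM, log axis) against the baricitinib dose in NTC and Adar1 KO guide 1 macrophages, with 1 point per library. KO libraries of Bst2 lie at 417 to 558 CPM up to the third dose and at 47.8 to 63.5 CPM at the fifth, and the fourth-dose library at 1111 CPM stands apart.

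In NTC macrophages, 0 members passed with the drug alone up to the fourth dose, although levels moved. The interferon-stimulated genes summed to 425 to 531 CPM without drug, 282 to 312 CPM at the third dose and 214 to 263 CPM at the fourth, without overlap, and Bst2 lay below every undrugged library at both of these doses. The limma count of members was 0 of 5 at the second dose (0% of genes; 345 at an unadjusted p below 0.05, 0 of them members). It was 0 of 5 at the third dose (0% of genes; 434 and 0) and 0 of 5 at the fourth (0.00897% of genes; 598 and 0). At the fifth dose 1 of 5 passed, beside 13.8% of genes: Ifitm6 fell to 110, 82.6 and 134 CPM, below all undrugged NTC libraries (log2 difference -1.17, SE 0.22, adjusted p 9.98e-04). Between the same groups monocyte markers fell from 287 to 343 CPM to 138 to 162 CPM and microglial markers rose from 875 to 943 CPM to 1201 to 1384 CPM, without overlap.

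Without KO replicate 2 at the fourth dose, which is not an NTC library but widens the shared spread, more of these differences passed. Bst2 then passed in NTC at the fourth dose (-0.70, SE 0.12, adjusted p 0.0014, beside 0.629% of genes). At the fifth dose Bst2 (-0.69, adjusted p 3.5e-04), Ifitm3 (-0.41, adjusted p 0.0082) and Ifitm6 (-1.17, adjusted p 3.8e-04) passed, beside 20.9% of genes. Bst2 in NTC was at 46.2 to 59.1 CPM over the 7 libraries of these 2 doses, all below the undrugged 81.5 to 93.9 CPM.

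Within KO macrophages, Bst2 fell at the fifth dose, from 417 to 515 CPM without drug to 47.8 to 63.5 CPM (log2 difference -3.10, SE 0.47, adjusted p 2.1e-06). Ifitm3 fell as well, from 2467 to 2562 CPM to 907.5 to 1162 CPM (log2 difference -1.31, SE 0.16, adjusted p 3.6e-08). Neither gene's groups overlapped. Marker sums moved without overlap too. Monocyte markers went from 442 to 549 CPM to 144 to 206 CPM, and macrophage markers from 8090 to 9398 CPM to 7356 to 7951 CPM. Microglial markers went from 707 to 1090 CPM to 1637 to 2048 CPM, and progenitor markers from 1.62 to 3.41 CPM to 10.8 to 14.4 CPM. Neutrophil markers went from 54.1 to 67.8 CPM to 69.8 to 147 CPM. With Ifitm1 (log2 difference 0.83, SE 0.34, adjusted p 0.0332), 3 of 5 members passed, beside 65.8% of genes. Ifitm1 overlapped between 0.772 to 2.05 CPM and 0.504 to 0.908 CPM. Its call ended without undrugged KO replicate 3 (0.60, adjusted p 0.168) or without the fifth-dose replicate 1 (0.74, adjusted p 0.0800), 2 (0.82, adjusted p 0.0559) or 4 (0.68, adjusted p 0.103). It also ended with a pseudocount of 1 (0.49, adjusted p 0.0642) or no filter (adjusted p 0.0646). Without undrugged KO replicate 1 the count was 4, beside 60.4%. Of the 20 interferon-stimulated genes, 18 fell at the fifth dose (median -6.52, beside 0.05 over all genes), and of 14 tested JAK-STAT genes 6 fell and 3 rose.

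Ifitm6 and Ifitm1 rose in KO macrophages at middle doses. At the second dose 0 of 5 members passed limma (2.34% of genes; 1815 at an unadjusted p below 0.05, with 1 member, Ifitm1). At the third dose 2 of 5 passed, beside 6.21% of genes. Ifitm6 was 285, 264.5 and 165 CPM there, all above its undrugged 101, 121 and 154 CPM (log2 difference 0.91, SE 0.22, adjusted p 0.0163). Ifitm1 was 3.11, 1.95 and 2.11 CPM, all above its undrugged 0.504 to 0.908 CPM (log2 difference 1.48, SE 0.36, adjusted p 0.0153). Both calls ended without the third-dose replicate 1 (Ifitm6 0.76, adjusted p 0.104; Ifitm1 1.29, adjusted p 0.0905) or without undrugged replicate 1 (Ifitm6 0.76, adjusted p 0.157; Ifitm1 1.59, adjusted p 0.0724). The call for Ifitm6 also ended without the third-dose replicate 2 (0.81, adjusted p 0.114). Without the fourth-dose replicate 2, 3 members passed beside 10.1% of genes, the third being Ifitm2 (0.36, adjusted p 0.0447).

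At the fourth dose 3 of 5 members passed in KO macrophages, beside 26.6% of genes. Ifitm6 was 249.5, 331.5 and 288 CPM, above every undrugged KO library (log2 difference 1.22, SE 0.22, adjusted p 2.3e-04). Between the same groups neutrophil markers went from 54.1 to 67.8 CPM to 76.3 to 325 CPM, macrophage markers from 8090 to 9398 CPM to 11626 to 12992 CPM and microglial markers from 707 to 1090 CPM to 1660 to 1902 CPM, without overlap. Their part in the rise of Ifitm6 was not tested. Ifitm1 was 2.17, 1.80 and 2.96 CPM, also above them (log2 difference 1.43, SE 0.36, adjusted p 0.0043). Ifitm2, at 744 to 875 CPM against 553 to 736 CPM without overlap, rose by 0.35 on the log2 scale (SE 0.12, adjusted p 0.026), a call that ended without undrugged KO replicate 1 (0.25, adjusted p 0.187) or 2 (0.35, adjusted p 0.0586), or the fourth-dose replicate 2 (0.30, adjusted p 0.0742) or 3 (0.34, adjusted p 0.0718). Under quantile normalization this rise of Ifitm2 was 0.11 (adjusted p 0.464). Bst2 did not pass (log2 difference -1.32, SE 0.51, adjusted p 0.0539), with replicate 2 at 1111 CPM. Without that replicate Bst2 fell by 2.60 on the log2 scale (SE 0.14, adjusted p 1.6e-13), and 3 members passed, beside 32.8% of genes.

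The drug's effect itself was compared between KO and NTC. At the fourth dose it differed for 1 of 5 members, beside 4.76% of genes: Ifitm6, by 1.40 on the log2 scale (SE 0.31, adjusted p 0.0065). Without KO replicate 2, 3 members passed, beside 13.7%: Ifitm6 (1.30, adjusted p 0.0065), Ifitm1 (1.61, adjusted p 0.0412) and Bst2 (-1.90, adjusted p 4.9e-08).

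At the fifth dose the drug's effect differed for 3 of 5 members, beside 39.5% of genes. Bst2 fell more in KO by 2.41 on the log2 scale (SE 0.69, adjusted p 0.0073), and Ifitm3 fell more by 0.89 (SE 0.23, adjusted p 0.0029). Ifitm1 differed by 1.35 (SE 0.50, adjusted p 0.0322). This call for Ifitm1 ended without any 1 of 7 libraries, namely undrugged KO replicate 3, the fifth-dose KO replicate 1 or 4, undrugged NTC replicate 1 or 2, or the fifth-dose NTC replicate 2 or 3, with values from 1.12 to 1.33, and with no filter (adjusted p 0.0651). Ifitm6 gave 0.75 (SE 0.31, adjusted p 0.0522), which passed at 0.0447 without KO replicate 2 at the fourth dose (4 members beside 44.7%). Without KO replicate 3 at the fifth dose the count was 4, beside 39.8%.

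Over the 10 groups of this set the order of log2 levels of Bst2 began with KO at the second dose (8.96, SD 0.22), the third (8.96, SD 0.07) and none (8.88, SD 0.16), which did not differ beyond their spread. KO at the fourth dose followed (7.56, SD 2.22). Then came NTC at the second dose (6.46, SD 0.24) and none (6.45, SD 0.10), within their spread, NTC at the third (6.05, SD 0.07), and last KO at the fifth (5.78, SD 0.18), NTC at the fifth (5.77, SD 0.05) and NTC at the fourth (5.75, SD 0.17), also within their spread. Ifitm3 ran from 11.60 (SD 0.13) in KO at the third dose through 11.16 (SD 0.07) in undrugged NTC to 10.74 (SD 0.14) in NTC and 9.99 (SD 0.15) in KO at the fifth. Its neighbours differed beyond their spread at 3 steps, below undrugged KO, below NTC at the fourth dose and below NTC at the fifth. Ifitm6 ran from 8.17 (SD 0.20) in KO at the fourth dose through 7.91 (SD 0.13) in undrugged NTC to 6.95 (SD 0.31) in undrugged KO, 6.74 (SD 0.35) in NTC and 6.53 (SD 0.34) in KO at the fifth, and of its neighbours just the first pair differed beyond their spread. Ifitm1 lay between -0.17 (SD 0.40) in undrugged KO and 1.66 (SD 0.44) in NTC at the second dose, with the lowest pair alone differing beyond its spread. Ifitm2 lay between 9.20 (SD 0.18) in NTC at the fifth dose and 9.68 (SD 0.17) in KO at the third, and differed beyond the spread of neighbours at 1 step, between KO and NTC at the fourth dose.

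Marrow monocytes and progenitors differed in Ifitm3 and Ifitm2. Ifitm3 was 55.4, 80.2 and 88.9 CPM in marrow progenitors and 527, 880.1 and 858 CPM in monocytes, without overlap (log2 difference 3.32, SE 0.62, adjusted p 0.0063). Ifitm2 was 288, 276 and 266 CPM in the progenitors and 552, 792 and 886 CPM in monocytes, without overlap (log2 difference 1.40, SE 0.26, adjusted p 0.0058). These were 2 of 5 members, beside 13.8% of genes. Ifitm6 was 8.36, 49.7 and 16.8 CPM in progenitors and 113, 259 and 242 CPM in monocytes, without overlap, yet missed the threshold (log2 difference 3.33, SE 1.55, adjusted p 0.174). It passed without ER-Hoxb8 progenitor replicate 2, which shares the fit and was left out after its values were seen (SE 0.93, adjusted p 0.0284, 3 members beside 21.6%). Neutrophil markers were present in both kinds of marrow cell, at 6579 to 23449 CPM in progenitors and 5430 to 15601 CPM in monocytes, and 0 of 9 passed limma between them. Lymphocyte markers were at 286 to 884 CPM in progenitors and 85.4 to 154 CPM in monocytes, and monocyte markers at 572 to 1201 CPM and 4102 to 4756 CPM, without overlap. The part of other cells in these values was not tested.

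ER-Hoxb8 progenitors could not be treated as 1 kind of sample. Ifitm1 was 142, 4.95 and 491 CPM in replicates 1 to 3, Ifitm3 was 140, 1040 and 145 CPM and Ifitm6 was 8.21, 187 and 0.536 CPM. Replicate 2 was low in Ifitm1 and high in the others, as the day 4 cells were, with Ifitm1 at 1.45, 5.59 and 7.08 CPM, Ifitm3 at 1518, 1205 and 1317 CPM and Ifitm6 at 64.6, 253 and 145 CPM. With all libraries, 0 of 5 members passed limma between day 4 and day 0, where 0% of genes did, 1129 genes had an unadjusted p below 0.05, and 3 of those were members (Ifitm1, Ifitm3 and Ifitm6). Between libraries of the same replicate number, Ifitm2, Ifitm3, Ifitm6 and Bst2 were higher at day 4 in 3 of 3 pairs. Replicate 2 is singled out here by the members' own values, so a fit without it gives no independent support. In that fit those 3 members passed, beside 11.1% of genes. Ifitm1 fell by 6.07 (SE 0.67), Ifitm3 rose by 3.23 (SE 0.29) and Ifitm6 rose by 5.92 (SE 1.04), all on the log2 scale. Of 6 fits with a library left out, that fit was the 1 that moved the count from 0.

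Against marrow progenitors, 1 of 5 members passed in ER-Hoxb8 progenitors, beside 25.5% of genes. Ifitm3 lay above all marrow progenitors in the 3 ER-Hoxb8 libraries (log2 difference 1.91, SE 0.62, adjusted p 0.0429). This call ended without marrow progenitor replicate 1 (1.71, adjusted p 0.134), 2 (1.98, adjusted p 0.0922) or 3 (2.05, adjusted p 0.0826), with no filter (adjusted p 0.0646) or with quantile normalization (1.66, adjusted p 0.0777). Without ER-Hoxb8 replicate 2, singled out by the members' own values, the difference of Ifitm3 was 0.96 (SE 0.29). Ifitm1 (3.32) and Ifitm6 (-3.12) then passed too, beside 28.5%. Neutrophil markers that passed the filter through marrow cells alone had to be lower in ER-Hoxb8 progenitors, so they are not counted. Over all 9, the sum was 6579 to 23449 CPM in marrow progenitors and 53.6, 47.9 and 2772 CPM in ER-Hoxb8 replicates 1 to 3. Mpo was most abundant in replicates 1 and 3 and S100a8 in replicate 2. Macrophage markers were at 1596 to 7396 CPM in ER-Hoxb8 and 356 to 617 CPM in marrow progenitors. Progenitor markers were at 19.6 to 96.6 CPM and 377 to 564 CPM, and lymphocyte markers at 0.649 to 0.823 CPM and 286 to 884 CPM. None of these sums overlapped. The part of such cells in the values of Ifitm3 and Ifitm6 was not tested.

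Bst2 passed in none of the 3 comparisons among these cells, at 31.04, 55.4 and 52.6 CPM in marrow progenitors, 18.5, 32.5 and 29.4 CPM in monocytes, 69.1, 52.6 and 24.7 CPM in ER-Hoxb8 progenitors and 85.2, 61.9 and 43.1 CPM at day 4. All monocyte libraries lay below all day 4 libraries, a pair that was not tested. By mean log2 level the order was day 4 cells (5.93, SD 0.49), marrow progenitors (5.49, SD 0.46), ER-Hoxb8 progenitors (5.49, SD 0.77) and monocytes (4.71, SD 0.43), of which the first 3 were within their spread and the last beyond it. Ifitm3 ran from day 4 cells (10.39, SD 0.17), beyond the spread of the next, through monocytes (9.52, SD 0.42) and ER-Hoxb8 progenitors (8.11, SD 1.66), that pair within its spread, to marrow progenitors (6.20, SD 0.36). Ifitm6 ran from monocytes (7.59, SD 0.66) and day 4 cells (7.06, SD 0.99) to marrow (4.26, SD 1.29) and ER-Hoxb8 progenitors (3.27, SD 4.17), each pair within its spread. Ifitm2 stood at 9.51 (SD 0.36), 9.14 (SD 0.21), 8.64 (SD 0.34) and 8.11 (SD 0.06) in monocytes, day 4 cells, ER-Hoxb8 progenitors and marrow progenitors. Ifitm1 stood at 6.14 (SD 3.42) in ER-Hoxb8 progenitors, 4.72 (SD 0.42) in marrow progenitors and 4.49 (SD 0.39) in monocytes, all within their spread, and at 1.97 (SD 1.21) at day 4.

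**Figure D3:**
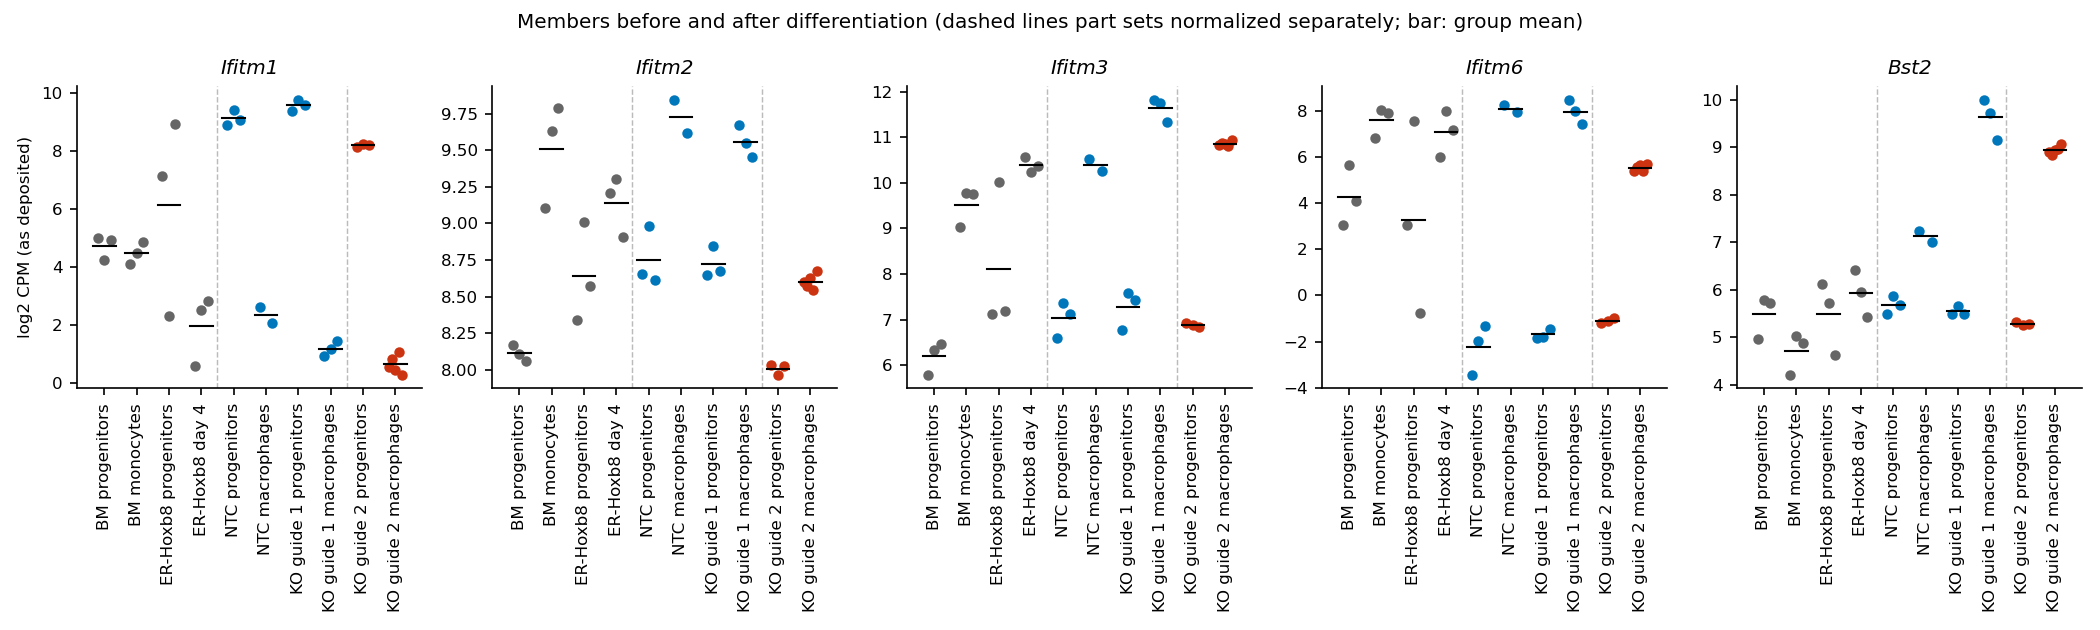
Level of each member (CPM, log axis) in marrow cells, ER-Hoxb8 cells at day 0 and day 4 and cultured macrophages, with 1 point per library. The cultured macrophages were normalized apart from the other groups and are not compared with them. ER-Hoxb8 progenitor replicate 2 has 4.95 CPM of Ifitm1 where replicates 1 and 3 have 142 and 491 CPM.

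Macrophages grown from ER-Hoxb8 cells and from marrow did not differ in any member by limma: 0 of 5 passed, beside 1.96% of genes, with 1071 genes at an unadjusted p below 0.05 and 1 member, Ifitm6, among them. Ifitm6 was 55.1, 100.2 and 69.5 CPM in ER-Hoxb8 and 2.71, 8.25 and 20.8 CPM in BMD macrophages, apart in every library (log2 difference 3.21, SE 1.42, adjusted p 0.478). Monocyte markers parted the same groups, at 28.9 to 208 CPM and 8.85 to 19.2 CPM, and their part was not tested. Ifitm2 was apart as well, at 633, 629 and 563 CPM in ER-Hoxb8 and 345, 370 and 386 CPM in BMD macrophages, with a log2 gap of 0.73 beside group SDs of 0.09 and 0.08 and an SE of 0.84 from the shared fit. Ifitm3 was 1185, 1166 and 957 CPM in ER-Hoxb8 and 321, 296 and 1049 CPM in BMD macrophages. The high BMD value is replicate 3, the library with the raised interferon-stimulated genes. It carries a wBM name, whereas the other replicates carry Mac names.

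In MLCs most members stood above their level in microglia. Ifitm3 had a lowest, median and highest level of 1.30, 21.2 and 28.96 CPM in 9 microglia libraries, 77.1, 118 and 125 CPM in marrow MLCs and 367, 598 and 2923 CPM in ER-Hoxb8 MLCs. None of these 3 groups overlapped. Bst2 had 21.4, 32.0 and 37.9 CPM in microglia, 43.0, 54.5 and 75.8 CPM in marrow MLCs and 105, 193 and 331 CPM in ER-Hoxb8 MLCs, also without overlap.

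Against microglia, 4 of 5 members were higher in ER-Hoxb8 MLCs, beside 33.9% of genes that passed. Ifitm3 differed by 5.68 on the log2 scale (SE 0.50, adjusted p 1.0e-09), Bst2 by 2.75 (SE 0.22, adjusted p 1.4e-10), Ifitm1 by 5.00 (SE 0.75, adjusted p 7.9e-06) and Ifitm2 by 4.33 (SE 0.54, adjusted p 4.9e-07). Without MLC replicate 6 these were 5.28, 2.82, 4.10 and 3.76, and all 4 passed, beside 32.3%. Without MLC replicate 2 or 3 the count was 5, beside 33.6% and 32.6%. Ifitm1 had 0.398, 0.975 and 2.63 CPM in microglia and 4.55, 32.0 and 780.0 CPM in ER-Hoxb8 MLCs, and Ifitm2 had 1.80, 21.4 and 42.4 CPM and 135, 253 and 2230 CPM, without overlap in either gene.

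Marrow MLCs stood above microglia in 5 of 5 members, beside 20.5% of genes. Ifitm2 had 149.5, 211 and 299 CPM in marrow MLCs, far above microglia (log2 difference 3.75, SE 0.54, adjusted p 9.1e-06). Ifitm3 differed by 2.90 (SE 0.50, adjusted p 1.1e-04) and Bst2 by 0.94 (SE 0.22, adjusted p 0.0023), with no overlap. Ifitm6 had 52.8, 263 and 390 CPM in marrow MLCs and 5.45, 23.8 and 122 CPM in microglia, with overlap (log2 difference 2.92, SE 0.92, adjusted p 0.0229). Ifitm1 had 2.48, 4.01 and 19.03 CPM in marrow MLCs and overlapped microglia in 1 library on each side (log2 difference 2.15, SE 0.75, adjusted p 0.0426). Monocyte markers were at 215 to 546 CPM in marrow MLCs, 149 to 11228 CPM in ER-Hoxb8 MLCs, 29.7 to 123 CPM in microglia and 8.85 to 19.2 CPM in BMD macrophages. The part of monocytes in these values was not tested.

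The calls for Ifitm1 and Ifitm6 between marrow MLCs and microglia rest on few libraries. That for Ifitm6 ended without marrow MLC replicate 3 (2.70, adjusted p 0.0553) or 6 (2.79, adjusted p 0.0510). That for Ifitm1 ended without any 1 of 11 libraries, marrow MLC replicates 1, 2, 3, 5 and 6 and microglia replicates 1, 4, 6, 7, 8 and 9, with values from 1.75 to 2.29. It ended as well with a pseudocount of 1 (1.504, adjusted p 0.0989), no filter (adjusted p 0.0677) or quantile normalization (1.90, adjusted p 0.0762). With replicate number as a block it also ended (1.87, adjusted p 0.139). Microglia replicates 8 and 9 had 1.80 and 5.91 CPM of Ifitm2 and 1.30 and 9.67 CPM of Ifitm3, below the other 7. Without both, 3 of 5 members passed, beside 21.1% of genes (Ifitm2 3.11, Ifitm3 2.33 and Bst2 0.85), and Ifitm1 (2.02, adjusted p 0.0812) and Ifitm6 (2.45, adjusted p 0.0695) did not.

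ER-Hoxb8 MLCs exceeded marrow MLCs in 3 of 5 members, beside 15.2% of genes. Ifitm3 differed by 2.78 (SE 0.55, adjusted p 0.0010), Bst2 by 1.81 (SE 0.24, adjusted p 6.1e-06) and Ifitm1 by 2.84 (SE 0.83, adjusted p 0.0197), of which the first pair did not overlap and Ifitm1 did. In the GFPHox libraries alone the difference of Ifitm1 was 1.15 (adjusted p 0.323), and without replicate 6 it was 1.94 (adjusted p 0.0457). Of the 20 interferon-stimulated genes 19 were higher in ER-Hoxb8 than in marrow MLCs, with a median of 3.86 beside -0.22 over all genes tested. Of 15 JAK-STAT genes, 8 were higher and 1 lower.

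**Figure D4:**
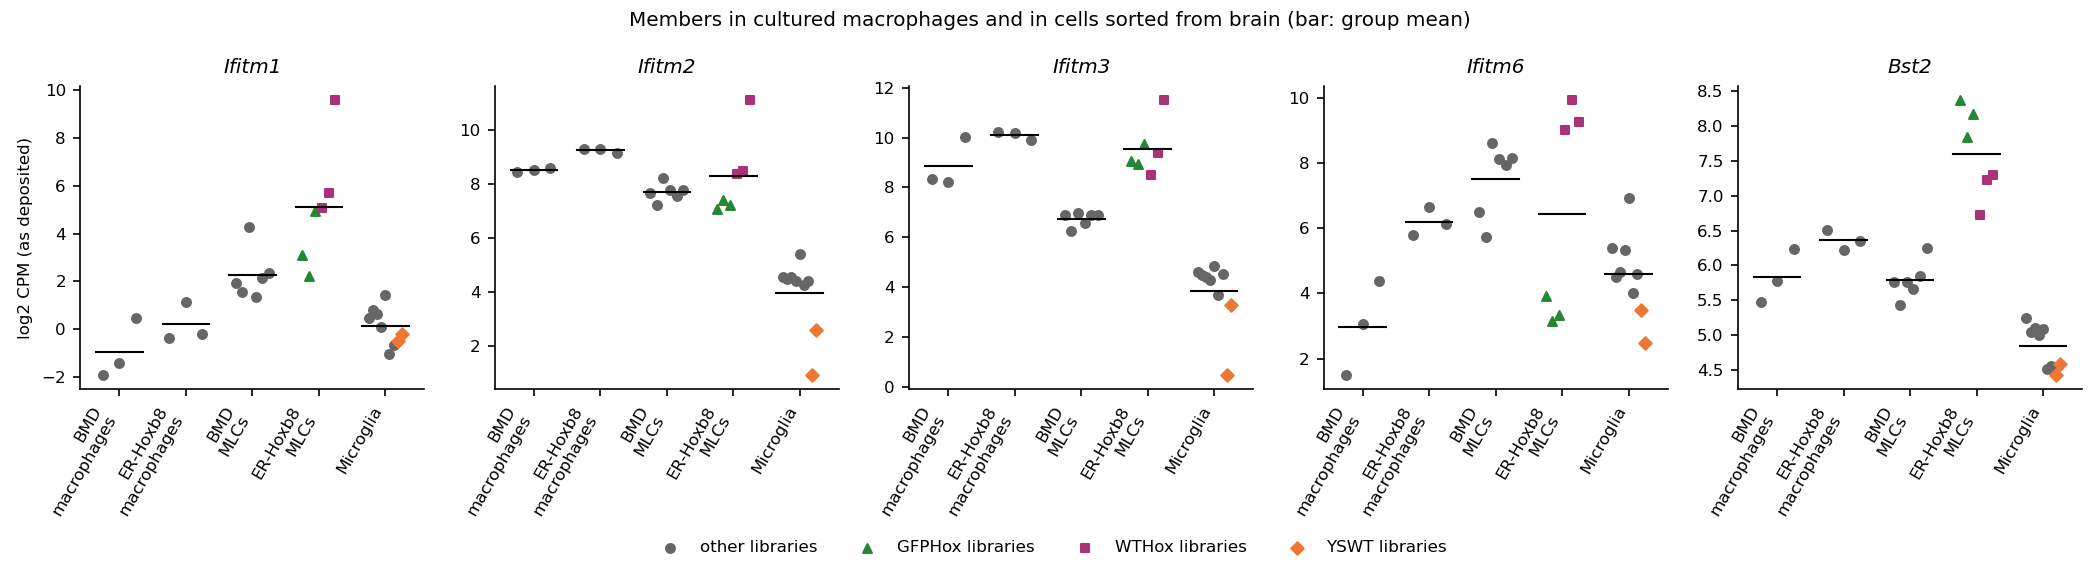
Level of each member (CPM, log axis) in cultured macrophages, MLCs and microglia of 1 normalization set, with 1 point per library. Bst2 lies at 105 to 331 CPM in the 6 ER-Hoxb8 MLC libraries, above marrow MLCs at 43.0 to 75.8 CPM and microglia at 21.4 to 37.9 CPM.

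Cultured macrophages were also set against the MLCs of the same origin. For marrow cells 3 of 5 members passed, beside 30.6% of genes. Ifitm3 was lower in the brain, 77.1 to 125 CPM against 321, 296 and 1049 CPM, with no overlap (log2 difference -2.11, SE 0.68, adjusted p 0.0195). Ifitm6 was higher there, 52.8 to 390 CPM against 2.71, 8.25 and 20.8 CPM, with no overlap (log2 difference 4.53, SE 1.23, adjusted p 0.0068). Ifitm1 was higher as well, 2.48 to 19.03 CPM against 0.178, 0.290 and 1.30 CPM (log2 difference 3.23, SE 1.01, adjusted p 0.0171), without overlap. The calls rest on single macrophage libraries. That for Ifitm3 ended without BMD macrophage replicate 3 (-1.53, adjusted p 0.165). Those for Ifitm6 and Ifitm1 ended without replicate 1 (3.79, adjusted p 0.0570, and 2.74, adjusted p 0.0958). That for Ifitm1 also ended without replicate 2 (3.00, adjusted p 0.0637), with a pseudocount of 1 (1.95, adjusted p 0.0832) or with replicate number as a block (2.85, adjusted p 0.0548).

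For ER-Hoxb8 cells 2 of 5 members were higher in MLCs than in macrophages, beside 34.8% of genes. Bst2 was 91.3, 74.2 and 81.3 CPM in the macrophages, below all MLC libraries (log2 difference 1.24, SE 0.29, adjusted p 0.0022). Ifitm1 was 0.699, 2.12 and 0.787 CPM there, also below all MLC libraries (log2 difference 4.91, SE 1.01, adjusted p 6.1e-04, and 4.01 without MLC replicate 6). Interferon-stimulated genes were higher in MLCs for 17 of 20, median 3.96, beside -0.15 over all genes. The difference between the 2 origins in this effect passed for 0 of 5 members by limma, beside 3.28% of genes. Of 1920 genes at an unadjusted p below 0.05, 2 were members, Bst2 (1.28, SE 0.42, adjusted p 0.0908) and Ifitm6 (-4.28, SE 1.74, adjusted p 0.204). Without ER-Hoxb8 MLC replicate 4 the count was 1, beside 4.84%.

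The GFPHox and WTHox libraries differed in several members. Bst2 was 331, 229 and 286 CPM in GFPHox and 105, 149 and 156 CPM in WTHox libraries. Ifitm1 was 8.48, 4.55 and 30.5 CPM in the former and 33.5, 52.3 and 780.0 CPM in the latter. Ifitm6 was 15.0, 8.88 and 9.92 CPM in GFPHox and 518, 976 and 612 CPM in WTHox libraries, with no overlap in any of the 3 genes. The difference between these names was not tested. With GFPHox libraries alone, 4 of 5 members passed between ER-Hoxb8 MLCs and macrophages, beside 26.3% of genes, among them Ifitm6, which was lower in MLCs (-2.72, adjusted p 0.0224). With WTHox libraries alone, Ifitm6 was higher in MLCs (3.22, adjusted p 0.0059). The difference between the origins then passed for 2 of 5 with GFPHox libraries, beside 6.61%, namely Ifitm6 (-7.25, adjusted p 3.2e-04) and Bst2 (1.81, adjusted p 0.0027), and for 0 of 5 with WTHox libraries by limma, beside 3.57%.

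Neutrophil markers, like Ifitm6, were higher in all WTHox than in all GFPHox MLCs. How closely these markers followed Ifitm6 over all brain libraries was not tested. Their sum over 9 genes was 829, 264 and 369 CPM in GFPHox MLCs and 20417, 44620.0 and 3614 CPM in WTHox MLCs. In marrow MLCs it was 7978, 4777, 31591, 34394, 34263 and 33069 CPM, and in microglia it ran from 440.5 to 6500.4 CPM with a median of 2038 CPM. WTHox replicate 6, the library that stood apart by its monocyte and microglial markers, lay below every marrow MLC library at 3614 CPM. Its Ifitm6 was above the highest marrow MLC value of 390 CPM. Ngp was the most abundant in all MLC libraries but WTHox replicate 6, where S100a8 was. In cultured macrophages of the set the sum was 3.21 to 71.0 CPM, and Ifitm6 reached 100.2 CPM there. In NTC macrophages the sum was 10.9 and 15.7 CPM, with Ifitm6 at 302 and 246 CPM. Between marrow MLCs and microglia 6 of 9 markers passed limma, all higher (median 3.33), beside 20.5% of all genes. BMD macrophages had marker sums of 3.21 to 37.5 CPM. Markers that passed the filter through the brain cells alone had to be higher in marrow MLCs than there, so no count is given. The part of such cells in the values of Ifitm6 was not tested.

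**Figure D5:**
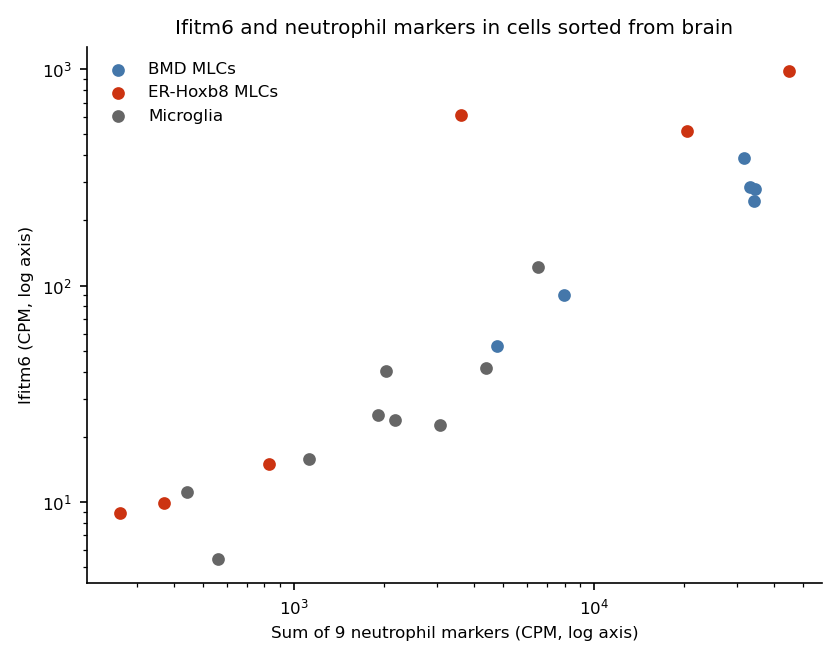
Ifitm6 (CPM) against the summed level of 9 neutrophil markers (CPM), both on log axes, with 1 point per library of the set that holds brain cells. GFPHox libraries lie at 8.88 to 15.0 CPM of Ifitm6 with marker sums of 264 to 829 CPM, and WTHox libraries at 518 to 976 CPM with 3614 to 44620.0 CPM.

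Lymphocyte markers and Ifng were raised in some ER-Hoxb8 MLC libraries. The 6 markers, led by Nkg7, summed to 25.9, 27.2, 228, 4.75, 26.4 and 429 CPM in replicates 1 to 6, and Ifng was at 106 CPM in replicate 3 and 78.1 CPM in replicate 6. Marrow MLCs had marker sums of 3.15 to 14.8 CPM and interferon sums of 0 to 0.230 CPM. Bst2 in replicates 3 and 6 was 286 and 156 CPM, inside the range of the other 4. Ifitm1 and Ifitm3 were each highest of their name group in these 2 libraries, at 30.5 and 866 CPM in replicate 3 and 780.0 and 2923 CPM in replicate 6, where Ifitm2 was at 2230 CPM too. For its brain cells the study describes a gate on live, single leukocytes with CD45 and CD11B, and its stains for sorting include both. The gating figure that it cites for the sequenced brain cells also names GFP. The part of lymphocytes in the members' levels was not tested.

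In the set with brain cells the order of Ifitm3 was ER-Hoxb8 macrophages (10.10 on the log2 scale, SD 0.17), ER-Hoxb8 MLCs (9.53, SD 1.06) and BMD macrophages (8.86, SD 1.02), neighbours within their spread, then marrow MLCs (6.74, SD 0.27) and microglia (3.85, SD 1.36). Bst2 went from ER-Hoxb8 MLCs (7.60, SD 0.63) to ER-Hoxb8 macrophages (6.36, SD 0.15), then BMD macrophages (5.83, SD 0.38) and marrow MLCs (5.79, SD 0.27), that pair within its spread, and microglia (4.84, SD 0.31). Ifitm2 went from ER-Hoxb8 macrophages (9.25, SD 0.09) to BMD macrophages (8.52, SD 0.08), ER-Hoxb8 MLCs (8.29, SD 1.51) and marrow MLCs (7.70, SD 0.33), these last 3 each within the spread of the next, and microglia (3.96, SD 1.36). Ifitm1 went from ER-Hoxb8 MLCs (5.11, SD 2.57) to marrow MLCs (2.26, SD 1.04), then ER-Hoxb8 macrophages (0.19, SD 0.82), microglia (0.11, SD 0.80) and BMD macrophages (-0.97, SD 1.27), the last 3 within their spread. Ifitm6 went from marrow MLCs (7.51, SD 1.13), ER-Hoxb8 MLCs (6.43, SD 3.27) and ER-Hoxb8 macrophages (6.18, SD 0.43), each within the spread of the next, to microglia (4.59, SD 1.26) and BMD macrophages (2.98, SD 1.45).

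Genes with a log2 pattern most similar to that of each member were found by Pearson correlation, as a description over libraries that share groups and normalization. Over the 33 baricitinib libraries Bst2 was most like Irgm1 (r 0.991), an interferon-stimulated gene. Ifitm3 was most like Plin2 (0.945), Ikbke (0.933) and Fxyd5 (0.928), and Ifitm6 like Sirpb1c (0.876), Sirpb1b (0.873) and Sirpb1a (0.868). Ifitm2 was most like Ifitm6 (0.8288), and Ifitm1 had weaker neighbours, led by Spp1 (0.690). Without KO replicate 2 at the fourth dose the first-named values were 0.990 for Bst2, 0.944 for Ifitm3, 0.882 for Ifitm6, 0.812 for Ifitm2 and 0.701 for Ifitm1 over 32 libraries. Bst2 and Ifitm1 had an r of -0.358 with each other in these libraries.

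Over the 27 libraries with brain cells Bst2 was most like H2-K2 (r 0.937), Nampt (0.929) and Fcgr4 (0.928), Ifitm3 like Oas1a (0.951), Tspo (0.949) and S100a10 (0.946), and Ifitm2 like S100a10 and Emb (both 0.958). Ifitm1 was most like Slfn1 (0.897) and Rsad2 (0.897, or 0.851 over 26 libraries without MLC replicate 6), and Ifitm6 like Lypd6b (0.898), G0s2 (0.896) and Nfe2 (0.893). Between members the highest r was that of Ifitm2 and Ifitm3 (0.936), a pair whose transcripts share sequence with the same copies. These libraries fall into clusters by cell type.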

How the data were processed

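RNA was sequenced from 92 libraries in 25 groups. The authors trimmed reads with fastp, quantified transcripts with kallisto 0.46.0 and tximport, normalized with TMM in edgeR and deposited log2 CPM. The labels name GRCm39 transcripts, and no coordinate of the deposited files was used. CPM were rebuilt as 2 to the power of the value minus the same for the set's lowest value, which 6 sets of libraries share. Of 29957 entries 1 has no gene name and holds 0.00226 to 0.0585% of a library. Depth was not read from counts but worked out from the lowest value.

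Python 3.11.15 (numpy 2.4.6, pandas 2.3.3, matplotlib 3.10.9) and R 4.3.3 with limma 3.58.1 were used. Within each set limma was fitted to the deposited values with group means and a trended prior, for genes above 1 CPM in at least 3 libraries (6 in the set with brain cells). There were 31 comparisons, 27 between 2 groups and 4 differences of effects. Tests were two-sided, and p values were adjusted by the Benjamini-Hochberg method across the genes of each fit, with a threshold of 0.05. The procedure was tested on simulated data. Replicate numbers were checked as pairs: between each pair of groups compared, replicates of the same number had 3 pairs that all correlated above 0.1 for ER-Hoxb8 day 4 against day 0 and for KO against NTC progenitors. In these each replicate correlated best with its own number, as it also did for KO against NTC macrophages (2 pairs) and for NTC at the second dose against none. A fit with number as a block was run as an alternative. In the baricitinib set library names run in series of 5, which the replicate numbers do not always follow, so series were checked in the same way (no comparison had 3 pairs all above 0.1) and a fit with series as a block was added after seeing the data.

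Named genes are the members, Adar, genes of lists (interferon-stimulated, interferon, JAK-STAT, IFITM-modifying, macrophage, microglial, progenitor, monocyte, neutrophil and lymphocyte genes) with the largest change or level, and up to 3 genes most like each member. A gene withheld for evaluation is not reported here. Members and lists were chosen with earlier results of these data known. Alternatives were a pseudocount of 1, no filter, quantile normalization, a fold limit of 2 on the log2 scale, the replicate block, each library left out, GFPHox, WTHox or non-YSWT libraries alone, and NTC macrophage replicate 2 included. Fits without ER-Hoxb8 progenitor replicate 2, ER-Hoxb8 MLC replicate 6 or KO replicate 2 at the fourth dose in comparisons that do not involve them were chosen after seeing the data. Guide 2 was not tested against NTC, since they share no set. Protein sequences were not used here.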

Additional observations from a re-analysis of the deposited data

Results flagged for a closer look

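In groups of 4 to 10 libraries, the highest and lowest were checked for a gap to the rest that is large beside the group's range. In 5 of 35 checks, 7 groups for each of 5 members, 1 library lay that far out, where chance alone gives about 1 in 20 groups. NTC at the fourth dose counts under 2 members. Ifitm1 was 4.26 on the log2 scale in marrow MLC replicate 3 (19.03 CPM) and 1.64 in NTC replicate 3 at the fourth dose (2.97 CPM, in a group that otherwise spans little). Ifitm2 was 11.12 in ER-Hoxb8 MLC replicate 6 (2230 CPM) and 9.59 in NTC replicate 4 at the fourth dose (772 CPM). Ifitm3 was 0.46 in microglia replicate 8 (1.30 CPM).

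Of 20 tests of whether an effect differs between groups, 6 passed by limma. The 20 include Ifitm6 for the editing effect, which was near the floor in progenitors, did not pass and is not counted in the Results. The share of all genes that passed was 13.6% for the difference of the editing effect, 4.76% and 39.5% for those of the drug at the fourth and the fifth dose and 3.28% for that between origins, where 0 of 5 members did. The effect of editing Adar1 differed between macrophages and progenitors by -1.60 for Ifitm1 and 2.63 for Bst2 on the log2 scale. The effect of baricitinib differed between KO and NTC macrophages by 1.40 for Ifitm6 at the fourth dose, and at the fifth by 1.35 for Ifitm1, -0.89 for Ifitm3 and -2.41 for Bst2. What lies behind these differences was not tested.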

How the results depend on the processing

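The number of members that passed stayed within 1.5 times its value in 251 of 269 fits with a library left out and in 161 of 185 other alternatives, among them all 31 with a pseudocount of 1 and all 31 with the replicate block, although single calls were lost under both. With the fold limit the counts were 0 for ER-Hoxb8 against marrow progenitors, KO against NTC at the fourth and the fifth dose, NTC at the fifth dose, KO at the third and the fourth dose against none and the difference at the fourth dose, beside 0.152 to 15.3% of genes. They were 1 for monocytes against marrow progenitors, ER-Hoxb8 MLCs against macrophages, KO against NTC macrophages, the difference of the editing effect, KO against NTC without drug and at the third dose, KO at the fifth dose against none and the difference at the fifth dose, beside 3.87 to 19.3%, and 3 for NTC macrophages against progenitors, beside 23.5%, with Ifitm6, which had to differ, among the 3. That limit removes small changes by construction. For ER-Hoxb8 against marrow progenitors the count was 0 with no filter (15.8% of genes) and 0 with quantile normalization (29.6%), and quantile normalization gave 1 for KO against NTC at the third dose (32.5%) and 2 for NTC at the fifth (15.2%). GFPHox libraries alone gave 4 for ER-Hoxb8 MLCs against macrophages (26.3%) and 2 for the difference between origins (6.61%). With the series of library names as a block in the baricitinib set the count was 2 for KO against NTC at the second dose (29.3%), and the call of Ifitm2 for KO at the fourth dose against none ended (0.32, adjusted p 0.0540). Leaving out YSWT libraries gave 3 for marrow MLCs against microglia (21.1%). Ifitm3 between KO and NTC at the third dose reversed to -0.032 with quantile normalization (adjusted p 0.841). For these changes the cause was not tested.

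With 1 library left out, counts ran from 0 to 3 for ER-Hoxb8 against marrow progenitors, 0 to 3 for day 4 against day 0, 1 to 3 for marrow MLCs against BMD macrophages, 3 to 5 for marrow MLCs against microglia and 0 to 1 for the difference between origins. In the baricitinib set they ran from 1 to 3 and 1 to 2 for KO against NTC at the third and the fourth dose, 0 to 1 and 1 to 3 for NTC at the fourth and the fifth, 0 to 3 for KO at the third dose against none, and 1 to 3 for the difference at the fourth. Single calls of members were kept in 511 of 553 fits with a library left out and in 323 of 368 other alternatives. The replicate block ended the call of Ifitm1 between marrow MLCs and BMD macrophages (2.85, adjusted p 0.0548) and microglia (1.87, adjusted p 0.139), and the pseudocount of 1 ended it there (1.95, adjusted p 0.0832, and 1.504, adjusted p 0.0989) and for KO at the fifth dose against none (0.49, adjusted p 0.0642). The cause was not tested. Depth limits Ifitm1 in BMD macrophages, at 0.178 and 0.290 CPM in 2 of 3 libraries, and Ifitm6 in edited and NTC progenitors, where values lie near the floor of 3 counts.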

Other observations

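Another family member, Ifitm10, was looked at after its values were seen. It was highest in microglia, at 23.8 to 79.1 CPM, with 15.6 to 47.1 CPM in marrow MLCs, 1.91 to 17.9 CPM in ER-Hoxb8 MLCs and 0.0462 to 2.30 CPM in the cultured macrophages of that set. Since it was picked by these values, no test is given for it. Microglia overlapped marrow MLCs, and marrow MLCs overlapped ER-Hoxb8 MLCs. The lowest value in the cultures lies below 0.122 CPM, the level of 3 counts in that set. Ifitm5 and Ifitm7 reached at most 1.68 and 0.679 CPM in any library.

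Among genes whose products act on IFITM proteins, Nedd4, a ubiquitin ligase, fell from progenitors to macrophages by 6.17 in NTC, 5.62 in guide 1 and 4.41 in guide 2 cells on the log2 scale. Zdhhc20, a palmitoyltransferase, rose by 1.90, 1.71 and 1.32. In these comparisons 71.8%, 71.3% and 81.3% of all genes passed limma. Setd7, Vapa and Zmpste24 also passed in guide 2 cells, with small falls of 0.37, 0.37 and 0.32. In KO macrophages Nedd4 fell by 3.96 at the fifth dose of baricitinib against none, where 65.8% of all genes passed limma.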
